A study of Mus musculus with 6 samples.

Results

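Neuropeptide precursors and the proteins of the granules that store them were read in bulk RNA sequencing of mouse substantia nigra. The 34 genes were a named list: 27 peptide precursors (among them Pmch, Hcrt, Ucn, Cartpt, Penk and Sst) and 7 granins and granule proteins (Vgf, Scg2, Scg3, Scg5, Chga, Chgb and Pcsk1n). All 34 were found by symbol among the 55335 genes of the deposited tables. The study compared 3 libraries titled WT, called control here, with 3 libraries labelled shDNAJB1, a name that reads as a short hairpin against Dnajb1, a co-chaperone gene. All 6 libraries came from C57 mice. The sources used here do not give age, sex, the way the hairpin was delivered or whether the controls carried one. The labels do not tie each library to its own animal. The p-values therefore describe variation among these 6 samples, and that variation could be technical.

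Neuropeptides are made as long precursors, sorted into dense core granules, cut there by prohormone convertases and released on strong activity. Granins such as chromogranin A and secretogranin II help to form those granules and are themselves cut into peptides. Many hypothalamic and brainstem peptides are made by small, tightly packed groups of neurons, whereas granins are made by most neurons. The substantia nigra lies close to several such groups, in the lateral hypothalamus, the zona incerta, the mammillary region, the Edinger-Westphal nucleus and the periaqueductal grey.

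Library totals ran from 24541386 to 38468363 gene counts, so 3 counts, the limit that a count of 0 allows, corresponded to 0.0780 to 0.122 CPM, the count scaled to the library's total gene count and given per 1000000. These limits cover counting error only. Dnajb1 itself (chromosome 8, positions 83608193 to 83612653 of mm10) was at 56.7, 47.1 and 51.5 CPM in control 1, 2 and 3 and at 44.5, 54.0 and 53.8 CPM in shDNAJB1 1, 2 and 3. Its log2 fold change was -0.09 (SE 0.13, edgeR adjusted p = 0.909), so the second group is called by its label throughout. All 9 dopaminergic markers of the tissue, such as Th, had counts in every library, and their summed level was 1244 to 3257 CPM in controls and 959 to 2505 CPM in the libraries labelled shDNAJB1. Both that sum and the sum of 7 GABAergic markers (1155 to 1453 and 285 to 1754 CPM) were lowest in shDNAJB1 3. The sums of 8 oligodendrocyte markers (8358 CPM there, 12117 to 15022 CPM elsewhere) and of 5 microglial markers (79.4 CPM there, 92.9 to 263 CPM elsewhere) were lowest in the same library. All 8 oligodendrocyte markers had a negative log2 fold change and 5 had separate groups, against 14.4% of all genes tested, with none called. The drop was not uniform, since 2 of the 8 were highest in shDNAJB1 1, where the sum of all 8 was 14997 CPM. The part of these sums in the results for shDNAJB1 3 was not tested.

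Some of the peptide genes lay mostly in 1 library, and others were spread over all 6. Of the 34 genes, 11 had at least 50% of their summed CPM in 1 library, where an even spread would give 16.7% to each. Of the 28 that passed the low-count filter, 6 did so (Pmch, Cartpt, Tac2, Vip, Adcyap1 and Rln3), against 0.546% of all 18870 genes tested. The genes and the 50% limit were chosen with earlier results of these data known, so that contrast is a description and supports nothing. Agrp, Penk, Nts, Nmb and Pnoc, by comparison, had 22.1% to 24.3% in their highest library. Pmch had the most concentrated level of those 18870 genes, Cartpt ranked 3 and Tac2 ranked 9. The other 5 of the 11, Hcrt, Ucn, Avp, Oxt and Nmu, did not pass the filter, and with Nms they make up the 6 genes that were not tested. None of the 7 granins and granule proteins reached 50%. In bulk tissue, fewer cells of a type and less RNA per cell cannot be told apart.

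**Figure D1:**
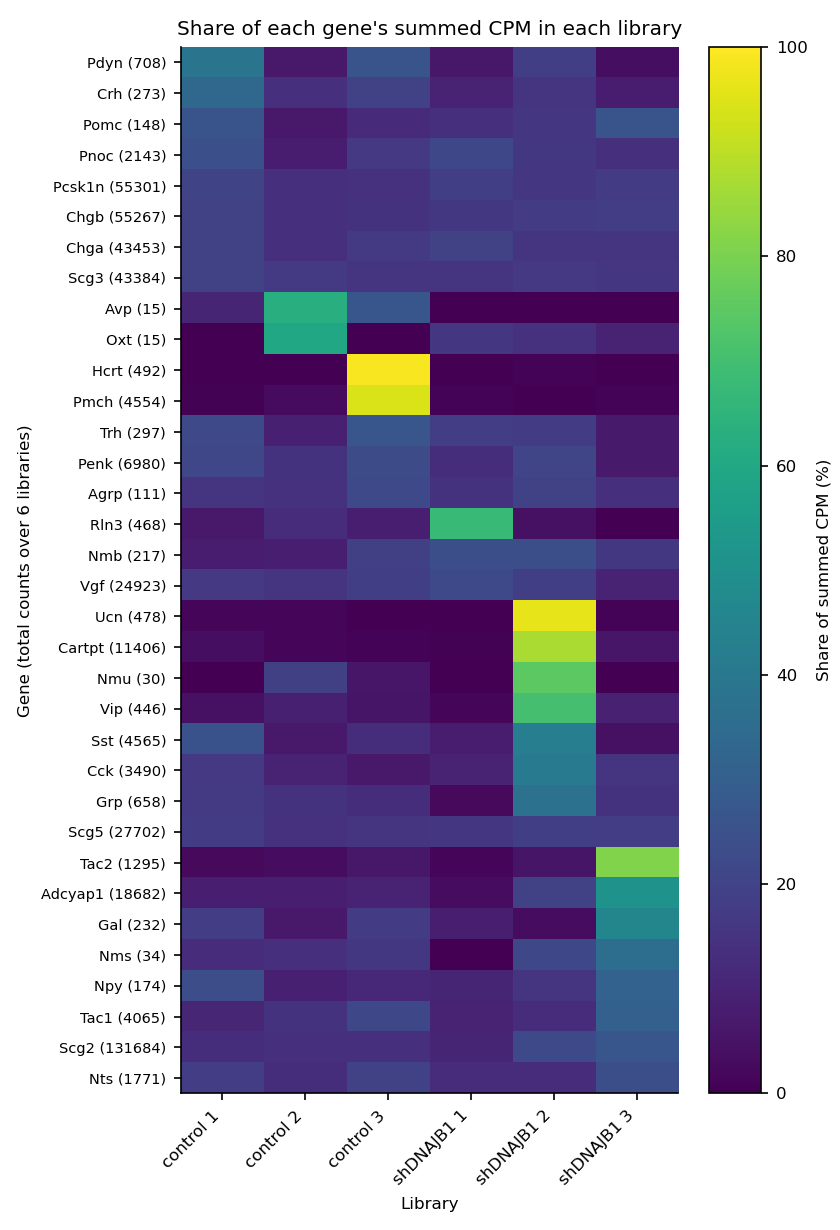
Share of each gene's summed CPM (colour, in percent) in each of the 6 libraries (columns) for the 34 genes (rows, with total counts in brackets), ordered by the library with the highest level. Hcrt and Pmch lie almost wholly in control 3, Ucn and Cartpt in shDNAJB1 2 and Tac2 in shDNAJB1 3, whereas the rows of the granins other than Scg2 and Vgf are nearly even.

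Pmch and Hcrt, which code for melanin-concentrating hormone and the orexins of the lateral hypothalamus, were found in control 3. Pmch (chromosome 10, positions 88091072 to 88092375, plus strand) had 4286 counts in control 3, 35 in control 1 and 120 in control 2, and its counts in shDNAJB1 1, 2 and 3 were 41, 15 and 57. Its levels were 0.910, 4.14 and 141 CPM in control 1, 2 and 3 and 1.67, 0.554 and 1.5 CPM in the other group. Control 3 was 34.1 times the next library and held 94.2% of the summed level. Hcrt (chromosome 11, positions 100761069 to 100762931, minus strand) had 488 counts in control 3, 4 counts in shDNAJB1 2 and 0 in the other 4 libraries. The same library thus stood far above the rest for both genes. For Pmch, control 1 lay within the range of the libraries labelled shDNAJB1 and control 2 lay above it. Of the 749 exonic bases of Pmch, 435 overlap exons of Parpbp on the opposite strand, and the sources used here do not give how the counting used strand. Exons of Penk, Nmu and Pcsk1n also overlap other genes on the opposite strand, by 55 to 233 bases. Parpbp was at 2.90 CPM in control 3 and at 0.530 to 1.12 CPM elsewhere.

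The 120 bases before the annotated starts of these genes are shown because both genes lay in the same library, and capitals mark the TATAAA match that each holds (RefSeq, GRCm38.p6, 5′ to 3′ on the gene's strand). The first is chr10:88090952-88091071 on the plus strand and the other is chr11:100762932-100763051 on the minus strand.
Pmch: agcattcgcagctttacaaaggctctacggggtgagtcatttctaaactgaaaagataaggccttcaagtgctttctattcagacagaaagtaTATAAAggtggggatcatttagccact
Hcrt: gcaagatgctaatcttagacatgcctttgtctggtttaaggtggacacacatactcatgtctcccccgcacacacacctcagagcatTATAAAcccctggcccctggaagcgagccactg
The match begins 27 bases before the start in Pmch and 33 bases before it in Hcrt. TATAAA, searched on both strands, was found in 7 of the 28 listed genes with a promoter entry (Adcyap1, Chga, Hcrt, Pmch, Pomc, Rln3 and Vip) and in 13.6% of all 32851 promoter entries of 300 bases. The motif was chosen after the values were seen, so this is a description only.

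Markers of the zona incerta and prethalamus, the GABAergic territory next to the lateral hypothalamus, were also highest in control 3 for 4 of 7 genes. These were Dlx1, Dlx5, Dlx6 and Pax6, forebrain transcription factor genes. The same library was highest for 4 of 8 cortex and hippocampus markers and for 9.30% of all genes tested. Dlx1 was at 3.04, 3.80 and 5.05 CPM in control 1, 2 and 3 and at 0.244, 1.37 and 1.52 CPM in shDNAJB1 1, 2 and 3. The summed level of the 7 genes was 71.5, 29.04 and 77.7 CPM in controls and 28.6, 41.0 and 14.03 CPM in the other group, and Dlx2, Dlx5 and Dlx6 were at 0 counts in shDNAJB1 1. For 3 of the 7 (Dlx1, Dlx2 and Dlx5) all controls lay above all libraries labelled shDNAJB1, and groups were separate for 14.4% of all genes tested. The gap between control 3 and control 1 was therefore far smaller for these markers than for Pmch and Hcrt. Of 13 hypothalamic transcription factor and related genes, 2 (Otp and Vax1) were highest in control 3, and Hmx2, Lhx8, Rax and Fezf1 were at 0 counts there. Their part in the Pmch and Hcrt levels was not tested.

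Ucn and Cartpt were found in shDNAJB1 2. Ucn codes for urocortin, a relative of corticotropin-releasing hormone whose main site in the brain is the centrally projecting Edinger-Westphal nucleus, just dorsal to the ventral midbrain. It had 455 counts in shDNAJB1 2, 6 in shDNAJB1 3 and 0 in shDNAJB1 1, and the controls had 8, 9 and 0 counts. At 16.8 CPM, shDNAJB1 2 held 96.1% of its summed level. Cartpt, the precursor of CART peptides, which the same neurons make, was at 14.8, 5.73 and 4.39 CPM in controls and at 2.57, 353 and 24.5 CPM in the libraries labelled shDNAJB1. Its level in shDNAJB1 2 was 14.4 times that of the next library, while shDNAJB1 1 was the lowest of all 6, so the groups overlapped.

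The same library was highest for Vip, Nmu, Sst, Cck and Grp. Vip, the vasoactive intestinal peptide gene, which some neurons of the periaqueductal grey and dorsal raphe express, had 294 counts there and 5 to 55 counts in the other 5 libraries, which is 10.9 against at most 1.45 CPM. Nmu, the neuromedin U gene, had 22 counts there, 6 in control 2, 2 in control 3 and 0 in the remaining 3. Cck, the cholecystokinin gene, expressed by nigral dopaminergic and by Edinger-Westphal neurons, was at 19, 11.3 and 7.75 CPM in controls and at 11.5, 46.1 and 17.6 CPM in the other group. Sst, the somatostatin gene, was at 37.3, 10.3 and 19.4 CPM and at 11.04, 63.4 and 6.88 CPM, so its second highest library was control 1. Grp, the gastrin-releasing peptide gene, was at 2.77 to 3.61 CPM in controls and at 0.570, 7.95 and 3.07 CPM. For the last 3 genes the excess of shDNAJB1 2 over the next library was 1.70 to 2.42 times, far under that of Ucn.

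Markers of the cholinergic oculomotor complex, which adjoins the Edinger-Westphal nucleus, did not move with Ucn. The summed level of 7 such genes was 59.8, 8.36 and 34.3 CPM in controls and 12.3, 8.09 and 24.3 CPM in the libraries labelled shDNAJB1, lowest in shDNAJB1 2. Of the 7, none was highest in that library and 4 (Phox2a, Chat, Slc5a7 and Slc18a3) were highest in control 1. Over all genes tested, 17.0% were highest in shDNAJB1 2 and 14.6% in control 1. Phox2a, a transcription factor gene of oculomotor neurons, had 17 counts in control 1 and 0 in the other 5 libraries. Serotonergic raphe markers, 4 genes including Tph2, summed to 96.5, 7.05 and 52.8 CPM in controls and to 11.9, 81.9 and 18.7 CPM in the other group. They were thus high in control 1, shDNAJB1 2 and control 3. Their part in the Ucn and Cartpt levels was not tested.

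Promoters with a full cAMP response element, the palindrome TGACGTCA, were searched because CREB is a known regulator of peptide genes. It was found in 5 of the 28 listed genes that had a promoter entry, and in 1.79% of all 32851 entries. The motif was chosen after the values were seen, so that contrast is a description and supports nothing. Of those 5 genes, Ucn, Cartpt and Sst were all highest in shDNAJB1 2, while Scg2 was highest in shDNAJB1 3 and Chgb in control 1. The library shDNAJB1 2 was highest for 8 of the 34 members and for 17.0% of all genes tested. The element, in capitals, is shown with 11 bases on either side, on the gene's strand (RefSeq, GRCm38.p6). The windows are chr5:31138921-31138950, chr13:99900777-99900806, chr16:23890874-23890903, chr1:79440076-79440105 and chr2:132781559-132781588, in the order shown.
Ucn: atgttcttcgcTGACGTCAgtcggagctgt
Cartpt: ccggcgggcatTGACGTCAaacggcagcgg
Sst: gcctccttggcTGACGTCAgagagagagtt
Scg2: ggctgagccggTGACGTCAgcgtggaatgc
Chgb: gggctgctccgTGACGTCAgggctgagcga
The element begins 44, 112, 48, 68 and 72 bases before the RefSeq start of these genes. The windows of Cartpt, Sst, Scg2 and Chgb lie in exons of the GENCODE models of the same genes, which begin further upstream, and the Ucn window lies in no annotated exon. A match is a description of the sequence and not a measured binding site.

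Tac2 and Adcyap1 were highest in shDNAJB1 3, Tac2 with 81.2% and Adcyap1 with 51.0% of the summed level. Tac2 codes for neurokinin B, a tachykinin of hypothalamic and habenular neurons. It was at 0.832, 1.17 and 2.24 CPM in control 1, 2 and 3 and at 0.448, 1.96 and 28.8 CPM in shDNAJB1 1, 2 and 3, from 1097 counts in the last. Adcyap1 codes for PACAP, a peptide of glutamatergic neurons in the hypothalamus and midbrain. It was at 47.2, 45.8 and 51.5 CPM in controls and at 17.7, 107 and 280.0 CPM in the other group. The controls were close to each other for Adcyap1, and the libraries labelled shDNAJB1 lay on both sides of them, from 17.7 to 280.0 CPM.

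Gal, Tac1, Npy, Nts and Nms were also highest in shDNAJB1 3, by smaller margins. Gal, the galanin gene, had 117 counts there and 6 to 47 counts elsewhere, which is 3.07 against at most 1.22 CPM. Tac1, the substance P precursor, was at 13.6, 18.6 and 27.1 CPM in controls and at 11.98, 15.97 and 38.3 CPM in the other group. Nts, the neurotensin gene, was at 7.08 to 10.8 CPM and at 6.93 to 13.1 CPM. Npy, the neuropeptide Y gene, had 13 to 62 counts in all libraries, and Nms, the neuromedin S gene of the suprachiasmatic nucleus, had 0 to 14. The groups overlapped for each of these genes.

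Markers of the mammillary and subthalamic region, which lies rostral to the nigra, were highest in the same library for 5 of 7 genes. Foxb1, a transcription factor gene of mammillary neurons, was at 2.29, 2.80 and 2.28 CPM in controls and at 1.63, 7.21 and 56.1 CPM in the libraries labelled shDNAJB1. The 7 genes summed to 51.1, 87.8 and 65.1 CPM in controls and to 59.8, 106 and 182 CPM in the other group. This is the order of Adcyap1 within the second group, and also that of Scg2 and Pcsk1. Among controls the order differed, since control 2 was highest for the sum and lowest for Adcyap1. The dopaminergic sum had the same order as this sum among controls (1244, 3257 and 1435 CPM). In the other group it had the reverse order (2505, 2031 and 959 CPM). Of the 13 hypothalamic genes, 7 were highest in shDNAJB1 3, among them Nkx2-1 with 37.3 CPM there and 0.122 to 4.84 CPM elsewhere, and Lhx8 and Vax1 were at 0 counts there. Their sums were 44.9, 20.4 and 42.3 CPM in controls and 16.7, 55.9 and 107 CPM in the other group. Gpr151, a habenular marker, was at 0.396 to 0.832 CPM in all libraries and was highest in control 1. The part of these markers in the Tac2 and Adcyap1 levels was not tested.

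Rln3, the relaxin-3 gene of the nucleus incertus and of scattered cells in the periaqueductal grey and above the nigra, was found in shDNAJB1 1. It had 291 counts in shDNAJB1 1, 22 in shDNAJB1 2 and 0 in shDNAJB1 3, and the controls had 47, 64 and 44 counts. At 11.9 CPM, shDNAJB1 1 held 67.5% of the summed level, and the lowest library was in the same group. Of 7 GABAergic markers, 6 were highest in that library, as were all 5 microglial markers and 23.3% of all genes tested. Gata3, a midbrain GABAergic transcription factor gene, was at 11.1 to 22.6 CPM in controls. In the other group it was at 33.8, 9.02 and 1.31 CPM. The 7 GABAergic genes summed to 1453, 1213 and 1155 CPM and to 1754, 733 and 285 CPM. Across the libraries labelled shDNAJB1, Rln3 and this sum had the same order, as had the dopaminergic, oligodendrocyte and microglial sums. Among controls, the GABAergic sum was highest in control 1, where Rln3 was lowest at 1.22 CPM. The part of the markers in the Rln3 level was not tested.

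**Figure D2:**
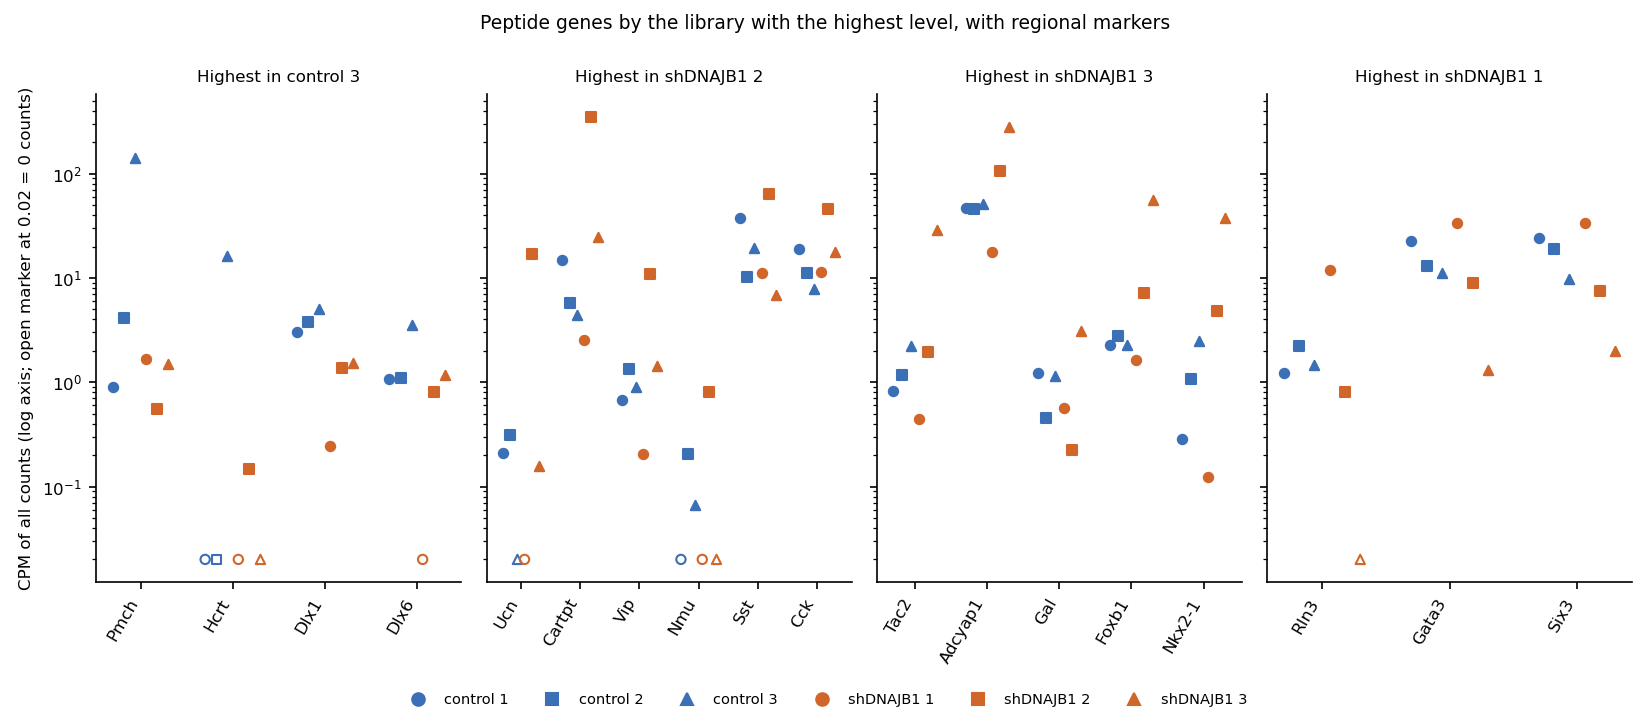
CPM of all counts (log axis) for peptide genes and regional marker genes in each library, in 4 panels by the library with the highest level. Filled markers are libraries with counts, open markers are libraries with 0 counts, blue is control and orange is shDNAJB1. Ucn at 16.8 CPM in shDNAJB1 2 stands above 5 libraries with at most 0.311 CPM.

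Avp, Oxt, Agrp and Pomc, peptide genes of the magnocellular and tuberal hypothalamus, had low counts in every library. Avp and Oxt, the vasopressin and oxytocin genes, lie 3565 bases apart on opposite strands of chromosome 2. Avp had 2, 9 and 4 counts in controls and 0 in each of the other 3 libraries. Oxt had 9 counts in control 2, 0 in control 1 and control 3, and 2 counts in each library labelled shDNAJB1. At these counts a difference between groups was not detectable for Oxt, and Avp stayed under the filter. Agrp, the agouti-related peptide gene of the arcuate nucleus, had 13 to 24 counts, and 1 of its overlapping genes lies on the same strand. Pomc, the precursor of melanocortins and beta-endorphin, had 45, 9 and 16 counts in controls and 15, 19 and 44 in the other group. Of 9 anterior pituitary markers, Cga, Lhb, Fshb, Tbx19 and Pou1f1 had 0 counts in every library, and Gh and Prl had 5 and 7 counts in control 1 only.

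Trh and Crh, the releasing hormone genes of thyrotropin and corticotropin, were at similar low levels. Trh was at 2.11, 0.829 and 2.57 CPM in controls and at 1.75, 1.66 and 0.683 CPM in the libraries labelled shDNAJB1. Crh was at 2.83, 1.17 and 1.65 CPM and at 0.856, 1.26 and 0.657 CPM. The groups of Crh overlapped only because control 2 lay below shDNAJB1 2.

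Opioid precursors had counts in all libraries, and Pdyn was the least even of them, with 38.6% of its summed level in control 1. Penk, the enkephalin precursor, was at 48.3, 33.0 and 51.2 CPM in controls and at 29.4, 47.0 and 16.3 CPM in the other group. Pdyn, the dynorphin precursor, was at 8.37, 1.52 and 5.64 CPM and at 1.39, 3.99 and 0.762 CPM. Pnoc, the nociceptin precursor, was at 5.32 to 16.6 CPM in controls and at 9.14 to 14.7 CPM in the other group. Penk and Pdyn were lowest in shDNAJB1 3, and their order over the 6 libraries was similar, with control 1 and control 3 highest. Nmb, the neuromedin B gene, was at 0.572, 0.622 and 1.39 CPM in controls and at 1.75, 1.74 and 1.18 CPM, and 163 of its exonic bases overlap Sec11a on the same strand, which makes its counts uncertain.

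Granins and granule proteins were abundant and, apart from Scg2 and Vgf, even across libraries. Per kilobase of exons, Scg2 had the highest mean level of the 34 genes (273 CPM per kb), followed by Pcsk1n (133), Chgb (106), Scg5 (93.6), Chga (84.1) and Scg3 (83.9), and Cartpt ranked above Vgf (52.8 and 46.1). The highest library was 1.26 to 2.58 times the lowest across these 7 genes, against a median of 1.64 times over all tested genes. Scg3, which links granins to the granule membrane, was at 267, 237 and 214 CPM in controls and at 212, 229 and 219.7 CPM in the other group. Chga and Chgb, the chromogranins, were at 232 ± 40.8 and 231 ± 33.2 CPM and at 280.4 ± 58.6 and 302 ± 16.4 CPM (mean and SD, n = 3 libraries per group, control first). Pcsk1n, which codes for the convertase inhibitor proSAAS, was at 282 ± 69.5 and 302 ± 25.0 CPM, and Scg5, the chaperone 7B2 of convertase 2, at 139 ± 15.1 and 154 ± 12.5 CPM (SD, n = 3). These differences between groups were smaller than or close to the spread between libraries of a group.

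Scg2 and Vgf varied most among the granins, in opposite libraries. Scg2, the secretogranin II gene, was at 546, 574 and 549.8 CPM in control 1, 2 and 3 and at 429, 911 and 1109 CPM in shDNAJB1 1, 2 and 3. The 3 controls lay between the lowest and the other two libraries of the second group, as for Adcyap1. Vgf, a nerve growth factor-inducible granin, was at 135, 123 and 154 CPM in controls and at 182, 152 and 77.4 CPM in the other group. It was thus highest in shDNAJB1 1 and lowest in shDNAJB1 3, and the extremes of Scg2 were the other way round.

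**Figure D3:**
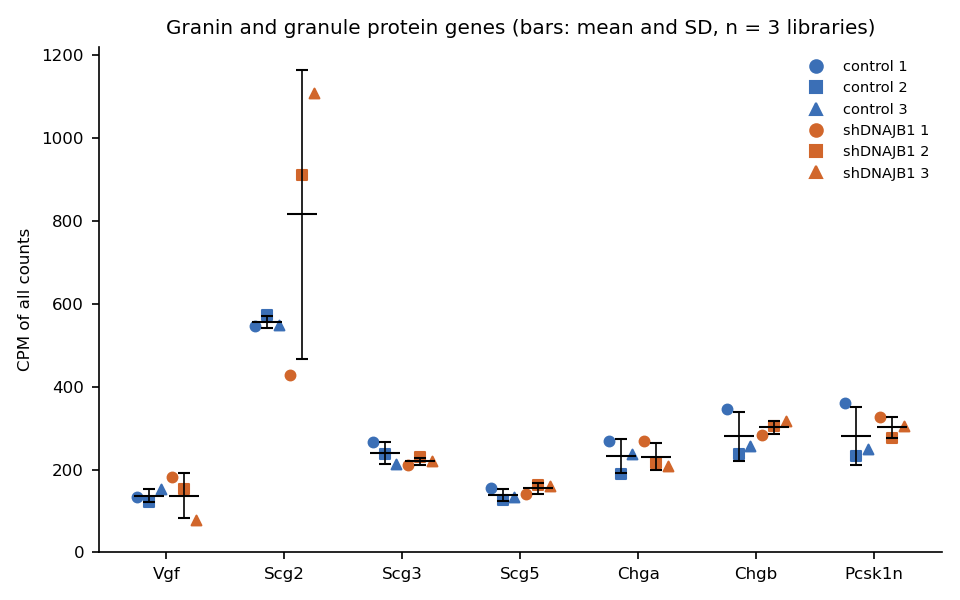
CPM of all counts (linear axis from 0) of the 7 granin and granule protein genes in each library, with black bars for the mean and SD of 3 libraries. Scg2 runs from 429 to 1109 CPM among the libraries labelled shDNAJB1, and Vgf from 77.4 to 182 CPM. The groups overlap for all 7 genes.

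The comparison of the groups called none of the 34 genes. By edgeR's quasi-likelihood test with Benjamini-Hochberg adjustment over all genes, 0 of 28 tested members had an adjusted p under 0.05, and the same holds for all 18870 genes (0% called). At an unadjusted p under 0.05 there were 3 members, Pmch, Cartpt and Crh, against 6.37% of all genes tested. Groups of CPM were separate for 0 of 28 members, against 14.4% of all genes tested. DESeq2's Wald test called 35 genes (0.164% of those with an adjusted p) and 0 members, and it gave no p for Pmch, Hcrt and Ucn. The median log2 fold change was 0.10 over the 28 members, with 17 higher and 11 lower, and 0.01 over all genes tested.

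Fitted fold changes of the peptide genes were large where 1 library held the transcript. Pmch had a log2 fold change of -5.32 (SE 1.71, edgeR adjusted p = 0.765), the lowest of all 18870 genes, and without control 3 it was -1.05. Cartpt was at 3.83 (SE 1.45, edgeR adjusted p = 0.765), the fifth highest of all genes, and at 0.64 without shDNAJB1 2. Tac2 was at 2.83 (SE 1.26, edgeR adjusted p = 0.765) and at -0.28 without shDNAJB1 3, and Vip at 2.04 (SE 1.08, edgeR adjusted p = 0.773) and at -0.23 without shDNAJB1 2. Rln3 was at 1.33 (SE 1.37, edgeR adjusted p = 0.857), and without shDNAJB1 1 it was at -2.15. The sign of Tac2, Vip and Rln3 therefore rested on 1 library each. Adcyap1 was at 1.42 and, without shDNAJB1 3, at 0.30.

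Crh and the opioid precursors kept their sign with any 1 library left out, apart from Pnoc. Crh was at -1.11 (SE 0.44, edgeR adjusted p = 0.765) and ranged from -1.38 to -0.65. Pdyn was at -1.43 (SE 0.73) and ranged from -2.35 to -0.86, and Penk was at -0.58 (SE 0.35) and ranged from -1.0 to -0.27. None of these passed the adjusted threshold. The 7 granins and granule proteins had a median of 0.04, with 4 higher and 3 lower, from -0.18 (SE 0.13) for Scg3 to 0.49 (SE 0.30, 95% interval -0.20 to 1.17) for Scg2. The 95% intervals of Scg3, Scg5, Chga, Chgb and Pcsk1n lay between -0.49 and 0.49, and that of Vgf ran from -0.71 to 0.60.

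**Figure D4:**
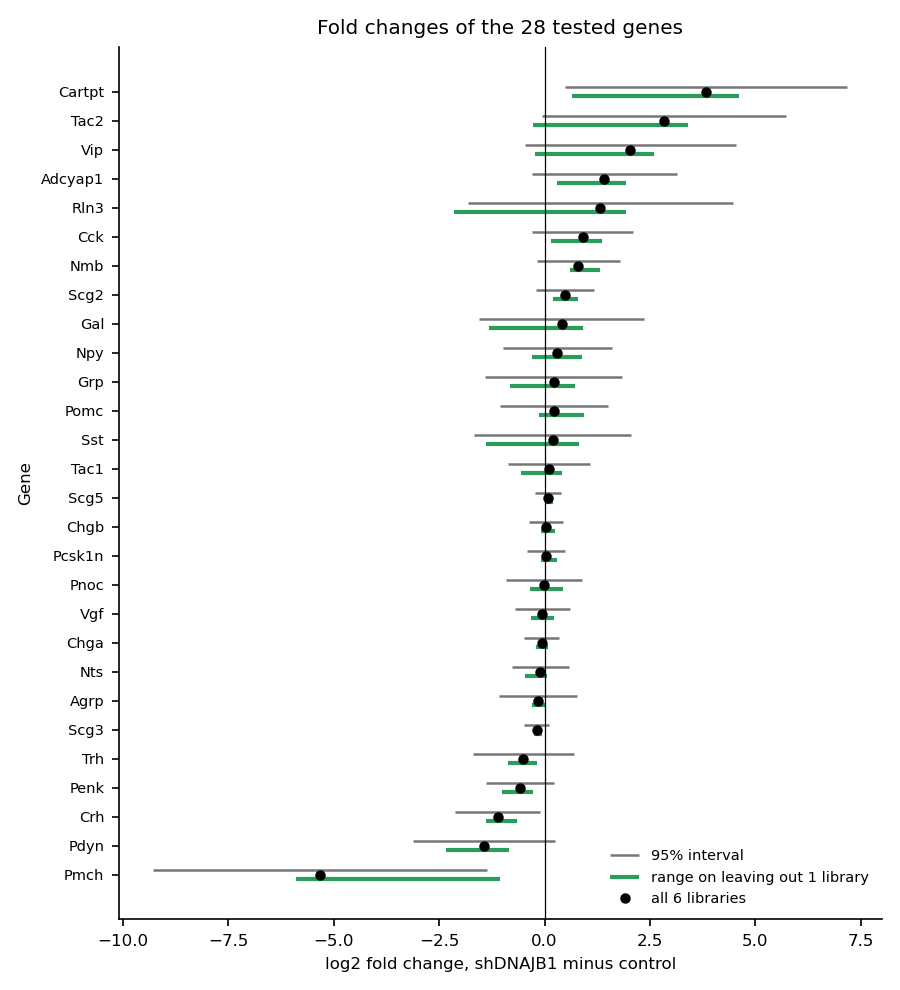
log2 fold change (shDNAJB1 minus control) of the 28 tested genes, with the 95% interval of edgeR's fit (grey) and the range on leaving out each library in turn (green). The widest green ranges belong to Pmch and Rln3. The granins other than Scg2 lie close to 0, and among them Vgf has the widest interval.

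Genes of peptide processing and release showed no call either. Of 14 processing enzymes, all tested, 7 had higher and 7 lower values (median log2 fold change 0.03), and 3 had an unadjusted p under 0.05, against 6.37% of all genes tested. These were Cpd, a carboxypeptidase (136, 166 and 159 CPM in controls, 110, 135 and 123 CPM in the other group), Prep, a prolyl peptidase, and Pcsk5, a convertase. Prep was at 33.3 to 36.1 CPM in controls and at 24.4 to 29.3 CPM in the other group, and Pcsk5 at 4.65 to 7.79 CPM and at 5.99, 17.0 and 15.6 CPM. Each had an edgeR adjusted p = 0.765. Pcsk6, a further convertase, was at 30.9 to 35.1 CPM in controls and at 24.0 to 33.0 CPM in the other group. The main processing enzymes of neurons, named after their values were seen, differed among themselves. Pcsk1, prohormone convertase 1, was at 33.5, 77.2 and 89.2 CPM in shDNAJB1 1, 2 and 3 and at 36.0 to 54.4 CPM in controls, and Pam, the amidating enzyme, was at 147, 283 and 416 CPM and at 186 to 194 CPM. Pcsk2, prohormone convertase 2, was at 111, 249 and 214 CPM and at 161 to 185 CPM, and Cpe, carboxypeptidase E, was at 1979, 1775 and 1985 CPM and at 1477 to 2081 CPM.

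Of 31 genes of granule formation and release, all tested, 15 had higher and 16 lower values (median -0.01), and 0 passed at either p. Only 1 of the 31 had separate groups, against 14.4% of all genes tested. This was Syt7, a calcium sensor of granule release, at 215 to 233 CPM in controls and 189 to 203 CPM in the other group (edgeR adjusted p = 0.765). Cyb561, which carries electrons into granules, was at 45.3 to 56.5 CPM and at 53.9 to 72.0 CPM. Syt10, a calcium sensor, was at 1.38 to 1.86 CPM in controls and at 0.693, 4.44 and 5.68 CPM in the other group. Of 43 peptide receptors, 39 were tested, 23 with higher and 16 with lower values (median 0.03). Cckbr, a cholecystokinin receptor, was at 6.78, 9.05 and 9.14 CPM in controls and at 5.26, 6.51 and 4.52 CPM in the other group. Rxfp1, a relaxin receptor, was at 2.89 to 7.87 CPM in controls and at 5.91, 13.8 and 43.8 CPM. These 2 of 39 receptors had an unadjusted p under 0.05 (6.37% of all genes tested did) and an edgeR adjusted p = 0.765. Avpr1a, a vasopressin receptor, was at 1.14 to 2.64 CPM in controls and at 0.978, 6.28 and 7.20 CPM. Hcrtr2, an orexin receptor, was at 7.30 to 9.50 and at 8.35 to 14.9 CPM, so it did not share the pattern of Hcrt.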

How the data were processed

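The deposited files hold raw counts per Ensembl gene, 1 file per library. STAR 2.5.3a, FastQC 0.11.5, DESeq 1.16.1, Cuffnorm and build mm10 are named, with no role, per the submitters' processing notes. The sources used here do not give the counting tool, annotation release or strand setting. Per the labels' protocols, Trizol RNA went into strand-specific TruSeq libraries. GENCODE M21 (mm10) matched 55154 of 55335 identifiers.

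Printed levels are CPM of all counts. Groups came from the titles. Genes passing filterByExpr (minimum count 10, minimum total 15) were scaled by TMM and tested with edgeR 4.0.16 in R 4.3.3, with a threshold of 0.05, and DESeq2 1.42.0 was an alternative. The procedure was tested on simulated data. SE is the fold change over the root of F. The 34 members and all lists were chosen with earlier results of these data known. All members are named, with up to 4 genes per pathway list by unadjusted p up to 3 per regional list by mean CPM and the 3 genes closest to each of 6 peptides by Pearson's r of log2 CPM (prior count 2). Other regional markers, Pcsk1, Pam, Pcsk2, Cpe, Nps, Npw and Nppb were named after their values were seen, as were the 50% limit and both motifs. Promoters came from RefSeq. Some regional markers are not reported here. Alternatives were size factors, no filter, DESeq2, a replicate block and leaving out each library. Replicate numbers were not taken to pair the libraries in the main fit. Figures used matplotlib 3.10.9.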

Additional observations from a re-analysis of the deposited data

How the results depend on the processing

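No member was called under any alternative, and edgeR called 0 genes under each, while DESeq2's Wald test called 35 genes. Members with separate groups numbered 0 with DESeq2 size factors or with TMM scaling (added after seeing the data), 1 (Avp) with no filter, where more genes were tested, and 2 (without control 3 or shDNAJB1 3) to 6 (without control 1 or shDNAJB1 1) on leaving out 1 library, where fewer samples have to separate and 20.04% to 36.2% of all genes tested did so. The granin median log2 fold change ran from -0.10 without control 2 to 0.21 without control 1. Members with at least 50% of their CPM in 1 library numbered 8 to 13 of 34 on leaving out 1 library and 11 on both other scales, and TMM scaling moved the highest library of 1 member, Scg5. Of 28 members, 16 changed sign on leaving out 1 library, with log2 fold changes from -0.31 to 0.045 for Agrp, -0.13 to 0.95 for Pomc, -0.35 to 0.44 for Pnoc, -0.55 to 0.40 for Tac1, -0.28 to 3.39 for Tac2, -1.38 to 0.83 for Sst, -0.29 to 0.89 for Npy, -0.47 to 0.064 for Nts, -0.23 to 2.59 for Vip, -1.32 to 0.91 for Gal, -0.82 to 0.72 for Grp, -2.15 to 1.93 for Rln3, -0.33 to 0.23 for Vgf, -0.21 to 0.085 for Chga, -0.082 to 0.26 for Chgb, -0.10 to 0.29 for Pcsk1n. The labels do not say whether the replicate numbers of the titles pair libraries. Libraries with the same number had deviations correlated at 0.04, -0.02 and 0.08, and those with different numbers at -0.13 to 0.08. With 3 libraries per group these values cannot decide it. With a replicate block 0 genes were called, the granin median was 0.07, and the sign changed for Pnoc (0.11), Tac1 (-0.023), Sst (-0.45), Gal (-0.16), Grp (-0.26), Rln3 (-0.76). The cause was not tested. Of the 6 members under the filter, depth limits Avp, Oxt, Nmu and Nms, which had at most 22 counts in any library. Hcrt and Ucn had 488 and 455 counts in 1 library and 0 to 9 counts in each of the others.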

Other observations

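Of 32 peptide precursors outside the 34 genes, 12 passed the low-count filter, and 1 of these had at least 50% of its summed CPM in 1 library. Of the 28 with any count, 12 did so, mostly on a few counts. The following 3 were named after their values were seen. Nps, the neuropeptide S gene of brainstem neurons near the locus coeruleus, had 111 counts in control 1 and 0 to 3 counts in the other 5 libraries. Npw, the neuropeptide W gene, had 20 counts in shDNAJB1 2, 4 in control 2 and 0 elsewhere. Nppb, the brain natriuretic peptide gene, had 40 counts in shDNAJB1 3, 4 in shDNAJB1 1 and 0 elsewhere. Pthlh, the parathyroid hormone-like peptide gene, was at 1.25 to 1.69 CPM in controls and at 1.18, 6.10 and 13.8 CPM in shDNAJB1 1, 2 and 3, the order of Scg2 in that group. Its log2 fold change was 2.18 (SE 0.72, edgeR adjusted p = 0.765). Apln, the apelin gene of endothelium and neurons, was at 35.5 to 50.2 CPM in controls and at 24.6 to 35.8 CPM in the other group.

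Genes whose log2 CPM followed a peptide most closely over the 6 libraries were far less concentrated than the peptide. The 13626 genes compared had a mean of at least 1 CPM. For Pmch the closest was Entpd7 (Pearson r = 0.97), at 13.9 CPM in control 3 and 8.58 to 10.5 CPM elsewhere, followed by Osbpl6 and Dpp9. For Hcrt they were Mrpl19, Six4 and Stradb, of which Six4 was at 5.34 CPM in control 3 and 2.44 to 3.03 CPM elsewhere. For Ucn they were Zfp429, Nt5e and Lrrn3, and for Cartpt Entpd6, Plppr2 and Gulp1, with Gulp1 at 14.9 CPM in shDNAJB1 2 and 6.84 to 9.75 CPM elsewhere. For Avp they were Eif2ak3, Wwp1 and Oxld1, and for Oxt Plce1, Cmtm3 and Clcc1. For Pmch, Hcrt, Ucn and Cartpt, each r rests largely on 1 library. The 3 genes closest to Avp were each higher in every control than in every library labelled shDNAJB1. They were picked for following Avp, which had counts in controls only, so this separation came with the choice and supports nothing. Groups were separate for 14.4% of all genes tested. Avp and Oxt had 15 counts each over the 6 libraries, so their r values rest on few counts.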
